A study of Mus musculus with 6 samples.

Results

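The genes described here are those of the natriuretic peptide system, namely the hormone genes Nppa and Nppb, the receptor genes Npr1, Npr2 and Npr3, and the protease genes Corin and Furin. These 7 genes were taken by name from a table of 54532 genes, and all 7 passed the filter on low counts that left 14774 genes for testing. Poly-A RNA of the left ventricle of male mice was sequenced at 4 weeks after aortic banding (AB), with 3 libraries per group and 1 library per heart. The TG group, with the genotype label HINT2CTG-Myh6Cre, carries a CAG-HINT2 transgene with the human HINT2 sequence, which Cre under the Myh6 promoter switches on in cardiomyocytes after tamoxifen at 5 mg/kg/day for 7 days. The NTG group is non-transgenic with the label C57BL/6J, and whether it received tamoxifen or carries Cre is not given in the sources used here. AB, a tie around the thoracic aorta over a 27-gauge needle at 8 to 10 weeks of age, was performed in both groups. Sham-operated hearts were not analysed here, so the values compare TG with NTG under pressure overload and do not show what AB itself changes.

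Atrial and B-type natriuretic peptides are hormones that cardiomyocytes release when the wall of the heart is stretched, and their RNAs are widely used as markers of cardiac hypertrophy. Nppa and Nppb encode their precursors, which the membrane protease corin and the convertase furin cut into the active peptides. The product of Npr1 is the guanylyl cyclase receptor that answers both peptides with cyclic GMP, the product of Npr2 is the related receptor for C-type natriuretic peptide, and the product of Npr3 is the clearance receptor that removes all of them. In the adult heart Nppa is mainly an atrial gene whose RNA returns in the ventricle under load.

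The 2 hormone genes lie next to each other. Nppb (ENSMUSG00000029019) lies at chr4:147985788-147987205 and Nppa (ENSMUSG00000041616) at chr4:148000722-148002079 of GRCm38, both on the plus strand with 3 exons each, and 13516 bases separate them. The longest run of bases shared anywhere between their transcripts is 10 bases, and their counts were therefore read as those of separate genes. The other 5 genes lie elsewhere on GRCm38. Npr1 (ENSMUSG00000027931) is at chr3:90450591-90465866 on the minus strand with 22 exons, Npr2 (ENSMUSG00000028469) at chr4:43631935-43651244 on the plus strand with 18, and Npr3 (ENSMUSG00000022206) at chr15:11839896-11907287 on the minus strand with 11. Corin (ENSMUSG00000005220) is at chr5:72300025-72504473 on the minus strand with 24 exons, and Furin (ENSMUSG00000030530) at chr7:80388585-80405436 on the minus strand with 11.

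The sequences before the 2 hormone genes are shown because both genes had lower levels in TG, and these windows hold the letters searched for. RefSeq windows of 250 bases before the gene start on GRCm38.p6 were found for all 7 genes. In the window of Nppa, chr4:148000472-148000721 on the plus strand, capitals mark GATAA and its reverse complement TTATC, the letters AAGTG and the letters TATAAA.
Nppa: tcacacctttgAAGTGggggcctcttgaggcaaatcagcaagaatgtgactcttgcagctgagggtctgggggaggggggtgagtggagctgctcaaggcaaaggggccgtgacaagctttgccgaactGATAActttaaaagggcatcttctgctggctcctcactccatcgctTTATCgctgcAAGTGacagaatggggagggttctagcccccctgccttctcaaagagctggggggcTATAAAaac
GATAA is the core that GATA factors bind, AAGTG is a core of the NKX2-5 type, and TATAAA is a TATA box. For Nppb the GATAA letters stand in a 30-base stretch at chr4:147985801-147985830, with GATAA in capitals. This stretch lies before the RefSeq start but inside the first exon of the GENCODE model.
Nppb: cagctGATAAatcagaGATAAccccacccc
In Nppa GATAA stood 121 bases before the RefSeq start on the plus strand and 75 bases before it on the minus strand, and in Nppb it stood 94 and 83 bases before the start. Over all 32851 windows of the same length, searched on both strands, 22.6% held GATAA, 40.7% AAGTG and 12.4% TATAAA. The windows of Npr1, Npr2, Npr3, Corin and Furin held no GATAA. The letters AAGTG and TATAAA also stood in the Furin window that begins at position 80405387. The other Furin window, which begins at position 80402763, held neither. The TATA box of Nppb stood 31 bases before its start, and CATTCC, the TEAD core found in 12.6% of windows, stood before Nppb alone among the 7 genes. TGANTCA of the AP-1 type, in 6.75% of windows, and the CArG box that SRF binds, in 1.47%, were in none of the windows of the 7 genes. These matches describe letters in a window and were not tested as binding sites.

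NTG libraries held 14863568 to 17581220 counts on genes and TG libraries 14944465 to 17235802. Hint2, the overexpressed gene, had 12, 545 and 559 counts in the libraries labelled NTG 1, NTG 2 and NTG 3 and 793, 828 and 859 in TG 1, TG 2 and TG 3. The library labelled NTG 1 thus had far fewer counts on Hint2 than the other 2 NTG libraries, and the log2 fold change of each of the 7 genes is given with and without it. Whether reads of the human transgene fall on the mouse gene was not tested. Levels below are CPM, counts scaled to a library of 1000000, scaled with TMM factors, a normalization of library sizes, and differences are log2 fold changes of TG minus NTG fitted by edgeR with its quasi-likelihood test. A call required that the Benjamini-Hochberg adjusted p over all genes tested was under 0.05 and that the log2 fold change exceeded 0.5 in either direction. The labels do not say whether litters or surgery days were shared, so p-values measure the spread between these hearts.

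By this rule edgeR called 0 of the 7 genes, against a background of 0% of all 14774 genes tested. With an unadjusted p under 0.05, Nppb and Npr3 were lower in TG and Npr1 was higher, which is 2 and 1 of the 7, where 9.76% of all genes tested were lower and 8.83% higher. This count of 3 genes changed with the libraries used. In edgeR it was 0 without NTG 3, 0 without TG 3, 1 without NTG 2 and 1 without TG 1. It was 3 without the library labelled NTG 1, for the same 3 genes. Without TG 2 it was also 3, but for Nppa, Nppb and Npr3, with Npr1 at an unadjusted p of 0.0924. The number of all genes at this p moved too, from 1305 higher and 1442 lower with all libraries. With 1 library left out, 15001 to 15170 genes were tested. Those at this p were 779 higher and 1069 lower without NTG 3, and 805 and 916 without TG 3. They were 762 and 805 without NTG 2, and 755 and 853 without TG 1. Without NTG 1 they were 2075 and 2006, and without TG 2 they were 1368 and 1541. DESeq2 on all 6 libraries also called 0 of the 7, against 3.95% of all genes. Without the library labelled NTG 1, edgeR called 0 of the 7 and 5.52% of all genes. The median log2 fold change was -0.13 over the 7 genes and -0.0081 over all genes tested. CPM of TG and NTG did not overlap for Nppb, lower in TG, and for Npr1, higher in TG, where 12.3% of all genes were lower and 11.2% higher without overlap.

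Nppa had the widest difference of the 7 genes and the widest spread. Its level was 754, 1394 and 1400 CPM in NTG 1, NTG 2 and NTG 3 and 172, 867 and 268 CPM in TG 1, TG 2 and TG 3. TG 1 and TG 3 lay below every NTG library, and TG 2 lay above the library labelled NTG 1, so the groups overlapped. The mean was 1183 ± 372 CPM in NTG and 436 ± 377 CPM in TG (SD, n = 3 each). The log2 fold change was -1.44 with an SE of 0.61, which is 2.71-fold lower in TG, with a 95% interval from -2.91 to 0.03. Its adjusted p was 0.275 by edgeR's quasi-likelihood test and 0.288 by DESeq2, and the unadjusted p was 0.0532. The SD came to 31.4% of the mean in NTG and 86.4% in TG. Genes of the mitochondrial genome took 19.2%, 13.4% and 14.3% of the counts in NTG 1, NTG 2 and NTG 3 and 21.5%, 16.0% and 20.3% in TG 1, TG 2 and TG 3. The library labelled NTG 1 lay above TG 2 in this share and below it in Nppa. The 3 libraries with the largest share, TG 1, TG 3 and NTG 1, had the 3 lowest levels of Nppa. With these genes left out of the fit the log2 fold change of Nppa was -1.44, but this changes only the scaling of libraries. It cannot show whether what the share reflects plays a part in the level of Nppa, which was not tested. Leaving out the library labelled NTG 1 gave a log2 fold change of -1.69. Without TG 2 edgeR gave -2.43 with an adjusted p of 0.107, which is no call, and DESeq2 gave -2.42 with an adjusted p of 1e-11, which is a call. TG 2 was the TG library with the most Nppa, and this DESeq2 fit was added after the values had been seen. DESeq2 called no change of Nppa with any other library left out. Its adjusted p was 0.237 without NTG 1, 0.734 without NTG 2 and 0.603 without NTG 3. It was 0.632 without TG 1 and 0.634 without TG 3.

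Nppb was lower in TG with a smaller difference and less spread. Its level was 1230, 1559 and 1509 CPM in NTG 1, NTG 2 and NTG 3 and 1009, 1229 and 809 CPM in TG 1, TG 2 and TG 3. All 3 TG libraries lay below all 3 NTG libraries, but TG 2 and the library labelled NTG 1 differed by less than 2 CPM in their order. As an unscaled share of all counts, TG 2 at 0.125% lay above NTG 1 at 0.121%, so the groups overlapped on that scale. Means were 1433 ± 177 CPM in NTG and 1016 ± 210 CPM in TG (SD, n = 3 each). The log2 fold change was -0.50 with an SE of 0.19, or 1.41-fold lower, with a 95% interval from -0.93 to -0.06. The adjusted p was 0.227 by edgeR and 0.0963 by DESeq2. Leaving out the library labelled NTG 1 gave -0.60 by edgeR, and DESeq2 without that library gave -0.59 with an adjusted p of 0.0191. DESeq2 without TG 2, the TG library with the most Nppb, gave -0.65 with an adjusted p of 0.0123. With any other library left out DESeq2 made no call of Nppb. Its adjusted p was 0.435 without NTG 2, 0.396 without NTG 3, 0.409 without TG 1 and 0.429 without TG 3. Of these DESeq2 fits only that without NTG 1 was planned before the values had been seen. Nppb was thus the 1 member of 7 that DESeq2 called lower without NTG 1, where 5.79% of all genes were called lower, and Nppa and Nppb were the 2 members called lower without TG 2, where 3.23% of all genes were.

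**Figure D1:**
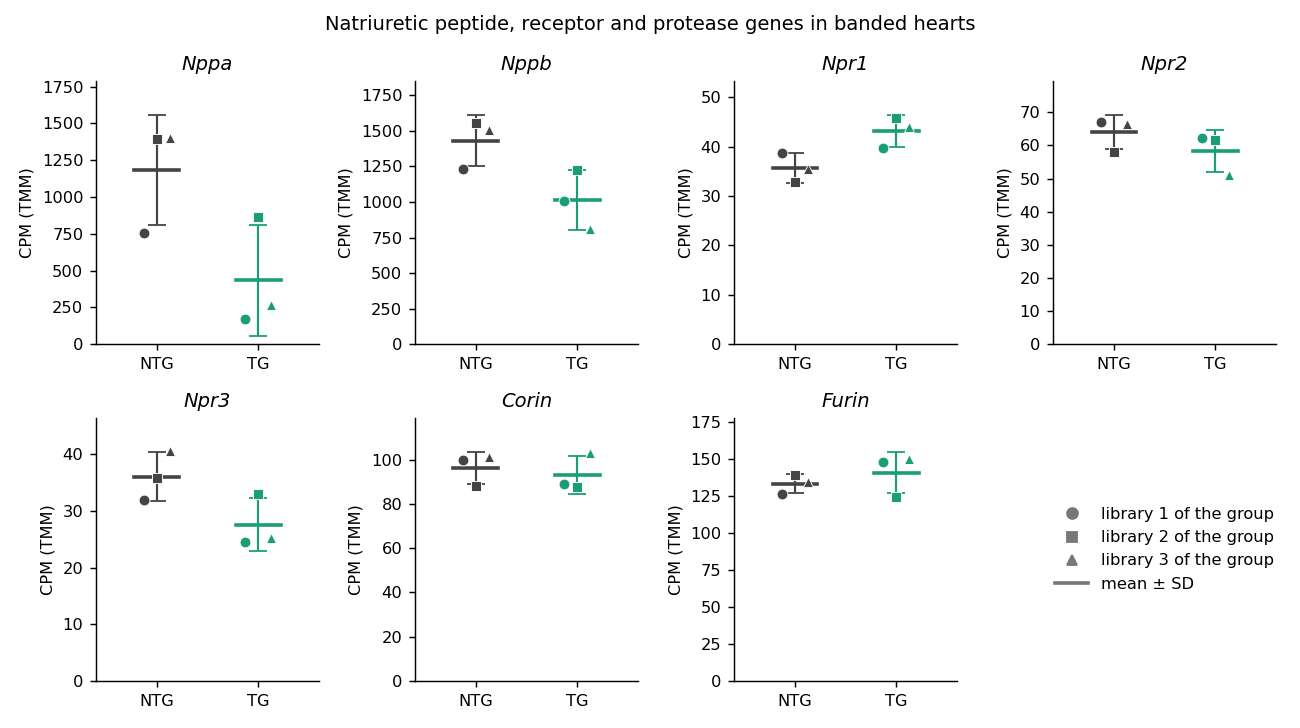
TMM-normalized CPM of each of the 7 genes (vertical axes, each starting at 0) in the 3 NTG and 3 TG libraries, with a marker shape for each replicate number and the mean and SD of each group as lines. Nppa of TG 2, at 867 CPM, stands with the NTG libraries, and Npr1 is higher in all 3 TG libraries than in any NTG library.

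Together the hormone RNAs took 0.196%, 0.316% and 0.300% of all counts in NTG 1, NTG 2 and NTG 3 and 0.110%, 0.214% and 0.104% in TG 1, TG 2 and TG 3. Their summed level was 2615 ± 547 CPM in NTG and 1451 ± 561 CPM in TG (SD, n = 3 each), with a two-sided exact permutation p of 0.2. The smallest p that 3 libraries against 3 can give is 0.1. TG 2 lay above the library labelled NTG 1 in this sum. The ratio of Nppb to Nppa, in counts per kilobase of gene within a library, does not depend on scaling between libraries. It was 1.81, 1.24 and 1.19 in NTG 1, NTG 2 and NTG 3 and 6.50, 1.57 and 3.34 in TG 1, TG 2 and TG 3. Nppb was the higher of the 2 in all 6 libraries, and the ratio of TG 2 lay within the NTG range. The mean ratio on the log2 scale was higher in TG by 1.22, a 2.34-fold difference, with an exact permutation p of 0.2. This difference was 0.72 without TG 1 and 1.75 without TG 2.

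Npr1, whose product turns both hormones into a cyclic GMP signal, was the receptor gene with a higher level in TG. It had 38.8, 32.8 and 35.4 CPM in NTG 1, NTG 2 and NTG 3 and 39.7, 45.8 and 44.0 CPM in TG 1, TG 2 and TG 3. The groups did not overlap, and the library labelled NTG 1 and TG 1 stood closest to each other. In CPM without TMM scaling NTG 1 at 38.2 lay above TG 1 at 36.8, so the groups overlapped on that scale, where edgeR's unadjusted p was 0.118. Means were 35.6 ± 3.01 CPM in NTG and 43.1 ± 3.16 CPM in TG (SD, n = 3 each). The log2 fold change was 0.28 with an SE of 0.10, or 1.21-fold, with a 95% interval from 0.04 to 0.51. Its adjusted p was 0.226 by edgeR and 0.233 by DESeq2. The value was 0.34 when the library labelled NTG 1 was left out.

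Npr3, the clearance receptor gene, had 31.9, 35.8 and 40.6 CPM in NTG 1, NTG 2 and NTG 3 and 24.4, 33.0 and 25.3 CPM in TG 1, TG 2 and TG 3. TG 1 and TG 3 lay below all NTG libraries and TG 2 lay above the library labelled NTG 1. The order of the 6 libraries was the same as for Nppa. The mean was 36.1 ± 4.34 CPM in NTG and 27.6 ± 4.73 CPM in TG (SD, n = 3 each), and the log2 fold change was -0.39 with an SE of 0.15, or 1.31-fold lower, with a 95% interval from -0.72 to -0.05. The adjusted p was 0.229 by edgeR and 0.217 by DESeq2. With the library labelled NTG 1 left out it was -0.47.

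Npr2, the receptor gene for C-type natriuretic peptide, had 67.2, 58.0 and 66.6 CPM in NTG 1, NTG 2 and NTG 3 and 62.2, 61.6 and 51.0 CPM in TG 1, TG 2 and TG 3. TG 3 was lowest and the other libraries of both groups were mixed in order. The log2 fold change was -0.13 with an SE of 0.11 and a 95% interval from -0.39 to 0.12, and edgeR's adjusted p was 0.527. It was -0.10 without the library labelled NTG 1 and lay between -0.20 and -0.05 with each library left out in turn. Npr2 lies on chromosome 4 only 2982 bases from Hint2. The antisense gene Gm12473 overlaps 266 exon bases of Npr2 and had up to 7.94% as many counts as Npr2, so that reads of the 2 genes are less certain where counting did not use strand. Gm13054, antisense to Nppa over 532 exon bases, had at most 0.253% as many counts as Nppa. Other genes that overlap a member had at most 0.688% of the counts of that member.

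The ratio of Npr3 to Npr1 sets the clearance receptor against the cyclase receptor within each library. In counts per kilobase it was 0.419, 0.556 and 0.584 in NTG 1, NTG 2 and NTG 3 and 0.314, 0.367 and 0.293 in TG 1, TG 2 and TG 3. Every TG library lay below every NTG library. The difference was -0.67 on the log2 scale, a ratio of 0.629 between the groups, with a two-sided exact permutation p of 0.1, the smallest that this design can give. The 2 genes of this ratio had differences of opposite sign.

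**Figure D2:**
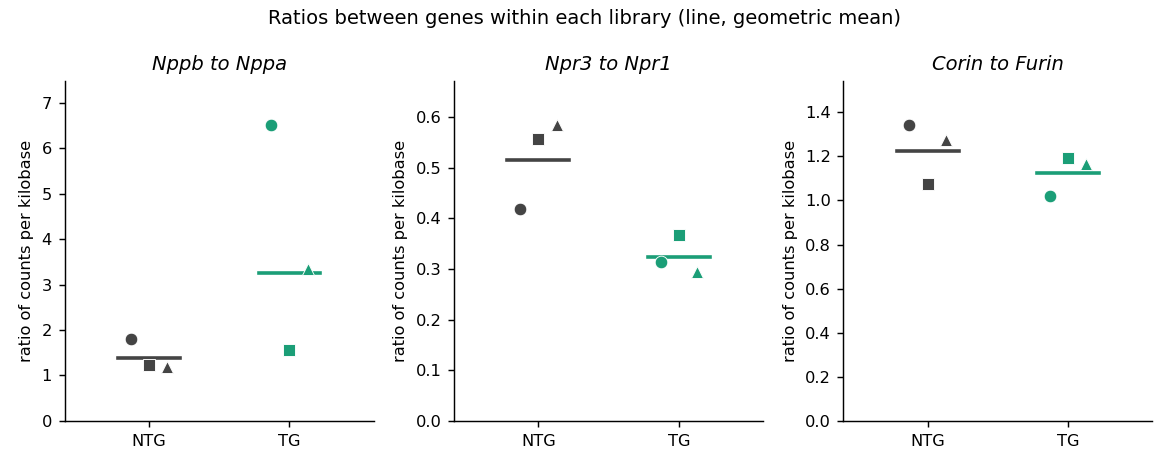
Ratios of counts per kilobase within each library (vertical axes) for Nppb to Nppa, Npr3 to Npr1 and Corin to Furin in the NTG (grey) and TG (green) libraries, with the geometric mean of each group as a line. The Npr3 to Npr1 ratio is 0.419 to 0.584 in NTG and 0.293 to 0.367 in TG without overlap, while the other 2 ratios overlap.

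The proteases that act on the hormone precursors had the smallest differences. Corin, which cuts the Nppa product at the surface of cardiomyocytes, had 99.7, 88.0 and 101 CPM in NTG 1, NTG 2 and NTG 3 and 89.0, 87.4 and 103 CPM in TG 1, TG 2 and TG 3. TG 2 was lowest and TG 3 highest, so the TG range enclosed that of NTG. Its log2 fold change was -0.05 with an SE of 0.10 and a 95% interval from -0.29 to 0.19, and edgeR's adjusted p was 0.828. It was -0.02 without the library labelled NTG 1 and -0.13 without TG 3. Furin, a convertase of the secretory pathway that cuts many precursors including that of Nppb, had 126, 139 and 135 CPM in NTG 1, NTG 2 and NTG 3 and 148, 125 and 150 CPM in TG 1, TG 2 and TG 3. TG 2 was again lowest, and TG 1 and TG 3 lay above all NTG libraries. Its log2 fold change was 0.08 with an SE of 0.11 and a 95% interval from -0.16 to 0.32, and edgeR's adjusted p was 0.710. It was 0.04 without the library labelled NTG 1 and 0.16 without TG 2. The sign of Furin turned to -0.01 when libraries were scaled by size alone, a scaling that moved the median of all genes to -0.09. The ratio of Corin to Furin in counts per kilobase was 1.34, 1.07 and 1.27 in NTG and 1.02, 1.19 and 1.17 in TG, with an exact permutation p of 0.4.

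Levels of different genes were compared per kilobase of gene. In NTG the order of mean CPM per kilobase was Nppb at 1834 ± 227, Nppa at 1367 ± 430, Corin at 17.8 ± 1.32, Furin at 14.5 ± 0.71, Npr2 at 13.7 ± 1.10, Npr1 at 7.45 ± 0.63 and Npr3 at 3.84 ± 0.46 (SD, n = 3). The ranges of Nppb and Nppa overlapped, and so did those of Furin and Npr2, while the other neighbours in this order did not overlap. In TG the order of the 7 genes was the same, with Nppb at 1300 ± 269, Nppa at 504 ± 436 and Corin at 17.2 ± 1.58 CPM per kilobase (SD, n = 3). In TG the neighbours whose ranges overlapped were Corin and Furin. Mean Nppa stood 76.7 times above mean Corin per kilobase in NTG and 29.2 times in TG. Of the summed CPM per kilobase of the 7 genes, Nppb took 56.3% in NTG and 69.9% in TG, and Nppa took 42.0% and 27.1%.

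Among the 14774 genes tested, ranked by CPM per kilobase from the highest, Nppb stood at rank 21, 16 and 17 in NTG 1, NTG 2 and NTG 3 and at rank 31, 20 and 38 in TG 1, TG 2 and TG 3. Nppa stood at rank 40, 19 and 20 in NTG and at rank 216, 33 and 135 in TG. Both hormone genes were therefore among the most abundant RNAs of these banded ventricles, and Nppa held a lower rank in TG 1 and TG 3 than in any NTG library.

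**Figure D3:**
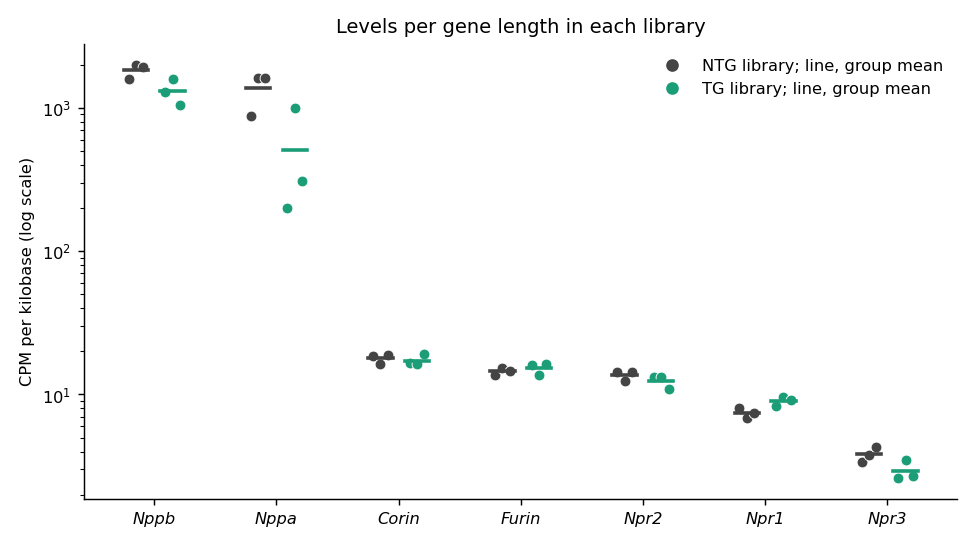
CPM per kilobase of gene (log axis) of the 7 genes in the NTG (grey) and TG (green) libraries, with 1 point per library and group means as lines. Nppb and Nppa lie far above the other 5 genes in both groups, and Npr3 is lowest.

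The tissue and cell content of the libraries was read from marker genes beside these values. In bulk tissue, fewer cells of a type and less RNA per cell cannot be told apart. All 6 ventricular cardiomyocyte markers, such as Myl2, Tnni3 and Myh6, had higher levels in TG, 2 of them at an unadjusted p under 0.05, and their summed level was 20003 to 34040 CPM in NTG and 32935 to 40790 CPM in TG. Dividing by this sum, a scale added after the values had been seen, moves the log2 difference of every gene by -0.50. The sum includes Myh6, also listed below as an adult gene of hypertrophy, so it need not measure cardiomyocyte content alone. Per 1000 CPM of these markers, Nppa was 22.1, 69.7 and 51.0 in NTG 1, NTG 2 and NTG 3 and 4.21, 26.3 and 6.85 in TG 1, TG 2 and TG 3. The difference of mean log2 levels of Nppa, an estimate apart from edgeR's fit, was -1.73 before this division and -2.23 on this scale, with an exact permutation p of 0.2. Nppb on this scale differed by -1.01 with an exact permutation p of 0.2, and TG 2 lay above the library labelled NTG 1. After the common shift Npr1 stood at -0.22 with overlapping groups, and Npr2 at -0.63 and Corin at -0.55 did not overlap, each with an exact permutation p of 0.1. On this scale 29.6% of all genes tested were lower in TG without overlap and 1.28% higher, against 2 of the 7 lower and 0 higher. Npr3 differed by -0.89 and Furin by -0.42 on this scale, with exact permutation p-values of 0.2 and 0.3.

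Atrial cardiomyocyte markers stood apart in some libraries, and Nppa is itself an atrial gene. Their summed level over 6 tested markers of 7 was 94.2, 16.5 and 16.4 CPM in NTG 1, NTG 2 and NTG 3 and 39.5, 56.1 and 216 CPM in TG 1, TG 2 and TG 3. Myl7, the atrial myosin light chain, had 19.5, 0.159 and 0 CPM in NTG and 1.59, 7.67 and 64.4 CPM in TG, and Sln, the atrial inhibitor of the calcium pump, had 8.33, 0.0531 and 0.0579 CPM in NTG and 0.288, 4.09 and 24.8 CPM in TG. Over the list 5 of 6 markers were higher in TG, 2 of them at an unadjusted p under 0.05, and DESeq2 called 1 higher, Stard10. The lower one was Dhrs9, with 0.546, 3.03 and 1.10 CPM in NTG 1, NTG 2 and NTG 3. In TG 1, TG 2 and TG 3 it had 0.865, 0.114 and 0.432 CPM. The median log2 fold change of the list was 1.19, and 2.82 without the library labelled NTG 1. Bmp10 had 0 to 3 counts per library and was not tested. By the summed level, the libraries with the most atrial RNA, TG 3 and the library labelled NTG 1, were not those with the most Nppa. Each had less Nppa than NTG 2 and NTG 3, which had the least atrial RNA by that sum. Within TG, TG 1 had the least of both, and TG 2 had more of both than TG 1. The part of atrial RNA in the level of Nppa was not tested.

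Markers of other cells were not alike in direction, and edgeR called 0 of them. All 5 fibroblast markers had lower levels in TG, 3 at an unadjusted p under 0.05, and DESeq2 called Col1a1 and Dcn lower. Their summed level was 2155 to 3209 CPM in NTG and 1377 to 1960 CPM in TG. All 5 macrophage and leukocyte markers were lower, 2 at an unadjusted p under 0.05, with sums of 298 to 583 CPM in NTG and 233 to 338 CPM in TG. All 5 erythroid markers were lower at an unadjusted p under 0.05, 4 of them called by DESeq2, with sums of 1310 to 2245 CPM in NTG and 762 to 908 CPM in TG. Of the 7 endothelial and endocardial markers 3 were higher and 4 lower, with sums of 1488 to 1677 CPM in NTG and 1533 to 1676 CPM in TG. Of the 5 smooth muscle and pericyte markers 3 were higher and 2 lower, with TMM-scaled sums of 1109 to 1449 CPM in NTG and 1182 to 1453 CPM in TG. DESeq2, with its own scaling, called Myh11 and Cnn1 higher. With libraries scaled by size alone, 2 smooth muscle and pericyte markers were higher and 3 lower. The part of these cells in the values of Npr1 and Npr3, which vascular and stromal cells also express, was not tested.

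Other genes of cardiac hypertrophy were set beside Nppa and Nppb. Of 8 fetal or stress-induced genes, 6 were lower in TG and 2 higher, and 2 passed an unadjusted p under 0.05, both lower. The 2 higher ones were Myl4 and Myl7, which also stand in the atrial list. Fhl1, a LIM protein of the sarcomere, had a log2 fold change of -1.13 and was called by DESeq2 with an adjusted p of 0.0102, and Xirp2, an actin-binding protein, had -0.83. Myh7, the fetal myosin heavy chain, had 804, 2303 and 2312 CPM in NTG 1, NTG 2 and NTG 3 and 585, 1952 and 384 CPM in TG 1, TG 2 and TG 3. As for Nppa, TG 2 and the library labelled NTG 1 crossed the groups. Of 4 adult genes all 4 were higher, 0 at an unadjusted p under 0.05 by edgeR and 0 called by DESeq2, with log2 fold changes of 0.56 for Myh6, which is also a ventricular marker, and 0.53 for Kcnd2.

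The wider pathway was described by 41 further genes, of which 37 were tested. Of these 21 were higher and 16 lower in TG, which turned to 17 and 20 when libraries were scaled by size alone. The median log2 fold change was 0.07, and 12 of 37 or 32.4% passed an unadjusted p under 0.05, 8 higher and 4 lower, where 18.6% of all genes tested did. CPM did not overlap between the groups for 11 of the 37, against 23.5% of all genes. edgeR called 0 of them, and DESeq2 called 1 lower, where it called 2.4% of all genes lower. That gene was Pde1a, a phosphodiesterase that breaks down cyclic nucleotides, with a log2 fold change of -1.01 and a DESeq2 adjusted p of 0.0235.

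Of the other ligands, Nppc, which encodes C-type natriuretic peptide, had 1 to 3 counts per library, and Ostn, whose product binds the clearance receptor, had 0 to 2, so neither was tested. Of 7 further proteases 4 were higher and 3 lower, or 3 and 4 with libraries scaled by size alone, and 1 of each was at an unadjusted p under 0.05. Mme encodes neprilysin, which degrades the hormones, and had 5.39, 2.23 and 2.78 CPM in NTG and 7.72, 4.66 and 7.53 CPM in TG, a log2 fold change of 0.95 with the library labelled NTG 1 above TG 2. Ece1, an endothelin-converting enzyme, had a log2 fold change of -0.33 with no overlap between the groups. For both genes edgeR's adjusted p was at or above 0.215.

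Downstream of cyclic GMP, 4 of 8 tested kinases and substrates were higher and 4 lower, and 0 passed an unadjusted p under 0.05. The 2 with the smallest p were Pln, the phospholamban that restrains the calcium pump, at a log2 fold change of 0.53, or 0.86 without the library labelled NTG 1, and Vasp, an actin regulator, at 0.19. Of 6 phosphodiesterases 2 were higher and 4 lower, or 1 and 5 with libraries scaled by size alone, with 1 of the higher and 2 of the lower at an unadjusted p under 0.05. The higher one was Pde3a, which breaks down cyclic AMP and is inhibited by cyclic GMP, at a log2 fold change of 0.40 with no overlap between the groups, and the lower ones were Pde1a and Pde9a. Pde9a, which breaks down cyclic GMP, had 6.42, 8.02 and 8.74 CPM in NTG and 4.11, 5.74 and 2.90 CPM in TG, a log2 fold change of -0.86 with no overlap between the groups. All 3 subunits of soluble guanylyl cyclase, the nitric oxide receptor, were higher, with 0.29 for Gucy1a1, 0.18 for Gucy1b1 and 0.01 for Gucy1a2, which left 2 higher and 1 lower with libraries scaled by size alone, and 0 passed an unadjusted p under 0.05.

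Transcription factors that act on the hormone genes differed in both directions. Of 13 factors 8 were higher and 5 lower, or 7 and 6 with libraries scaled by size alone, and 6 of the higher and 1 of the lower had an unadjusted p under 0.05, where 8.83% of all genes tested were higher and 9.76% lower at that p. The median log2 fold change was 0.09 over the list and 0.14 without the library labelled NTG 1. The 6 were Nkx2-5, Srf, Mef2a, Gata6, Myocd and Hand2, and Nkx2-5 had a log2 fold change of 0.33 with an SE of 0.12. Nfatc4, a factor of calcineurin signalling, was the lower one, at -0.68 with an SE of 0.19. Both edgeR and DESeq2 called 0 of these factors. Their summed level was 966 to 1241 CPM in NTG and 1109 to 1270 CPM in TG.

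**Figure D4:**
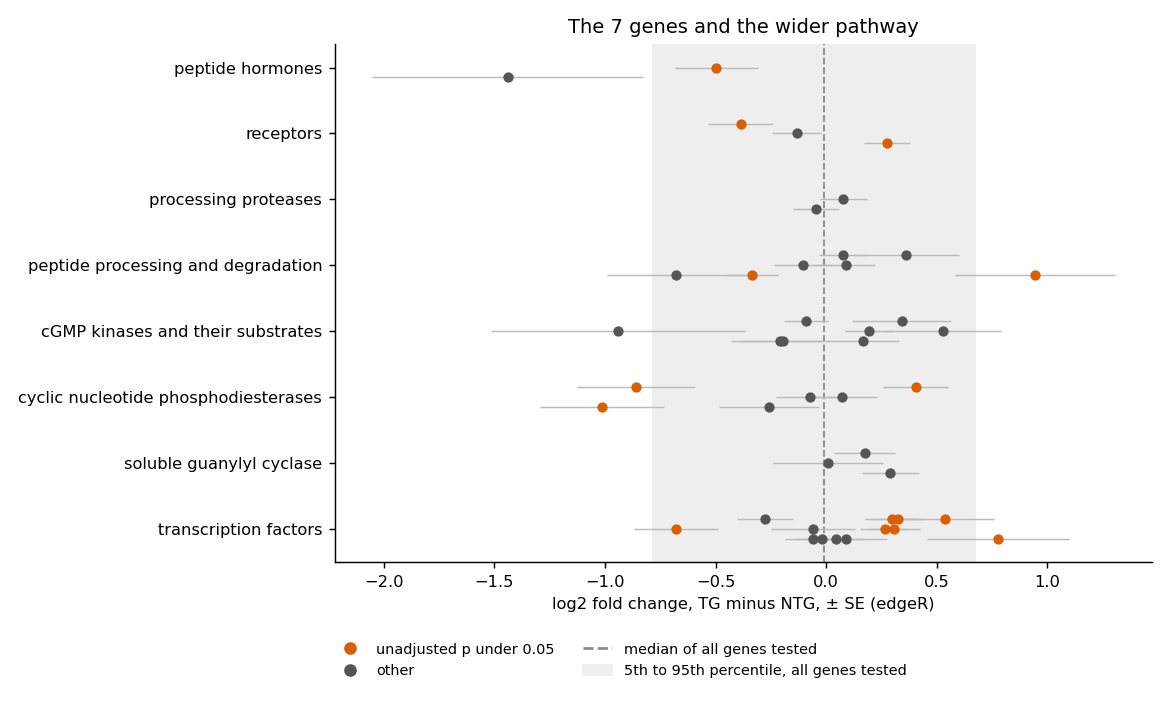
log2 fold change of TG minus NTG with its SE (horizontal axis) of the 7 genes and the 37 tested genes of the wider pathway, by group, where orange points have an unadjusted p under 0.05 and the grey band runs from percentile 5 to percentile 95 of all genes tested. Nppa lies furthest to the left of the 7 genes at -1.44 and carries the widest error of the genes shown, 0.61.

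Among 10779 genes, Pearson's r of log2 CPM over the 6 libraries was highest with Nppa for Polr3e at 0.994, Gdf15 at 0.992 and Phldb2 at 0.992, where the gene at rank 1000 had 0.841. For Nppb the most alike genes were Mical2 at 0.997, Atp6v1h at 0.997 and Nkd2 at 0.997, against 0.873 at rank 1000. For Npr1 they were Col6a3, Pick1 and Mcm5 at 0.995 to 0.992, and Npr3 was most like Sec31a at 0.994. Npr2 was most like Lmna at 0.990, Corin most like Atg4b at 0.991 and Furin most like Bud13 at 0.949. The 6 points are the same libraries for every gene and share their depth and group difference, so that high values are common among so many genes.

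**Figure D5:**
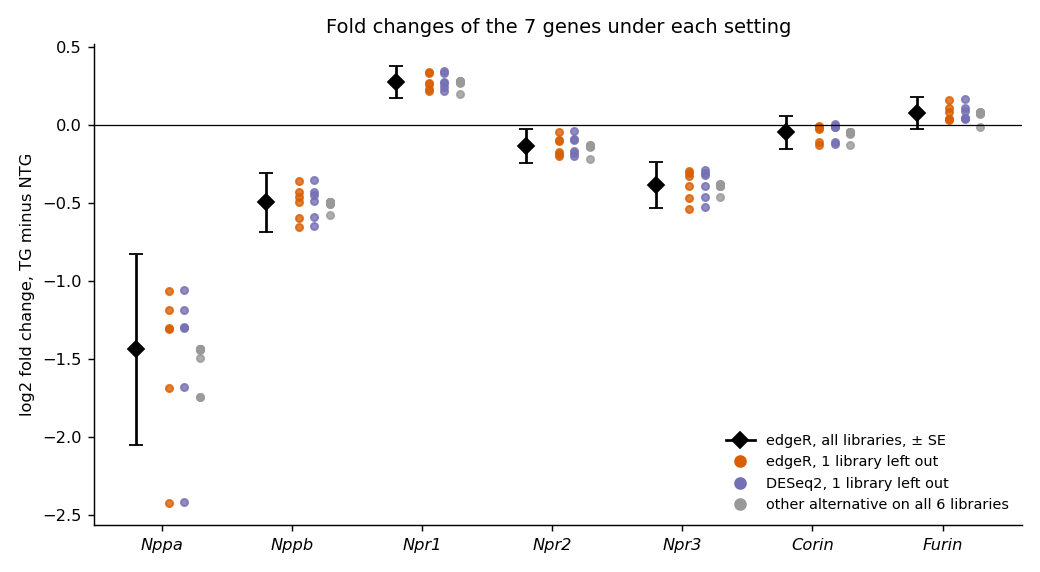
log2 fold change of TG minus NTG (vertical axis) of each of the 7 genes, with all 6 libraries in edgeR as a black diamond with its SE and the 24 alternative settings as coloured points. Nppa ranges from -2.43 to -1.06, while Corin and Furin stay near 0 and cross it in 1 setting each.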

How the data were processed

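The deposited values are raw counts of reads per gene, which the authors made with featureCounts v1.5.0-p3 and did not normalize or pool. The submitters' processing notes name HISAT2 and GRCh38, while gene identifiers and coordinates are those of mouse GENCODE release M21 (GRCm38), with which 98.3% of the 54495 shared genes were identical. The strand setting is not given in the sources used here. The authors compared the groups with DESeq2 1.20.0. Of the gene names, 27 had turned into dates and were read from the annotation.

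Here counts were scaled by TMM and tested in R 4.3.3 with edgeR 4.0.16 (filterByExpr by group, robust quasi-likelihood test, Benjamini-Hochberg over 14774 genes), with all 6 libraries and no covariate. Intervals are 95% intervals of that fit, and log2 CPM for the likeness of patterns used a prior count of 2 and a mean of at least 2. Ratios and marker-scaled levels were compared by two-sided exact permutation tests over libraries. Total counts were 14863568 to 17581220, and counting error and the spread between hearts were not separated. Alternatives were other scalings and filters, edgeR's likelihood-ratio test, limma 3.58.1 (voom), DESeq2 1.42.0, a replicate block and each library left out. On simulated data with 194 of 14542 genes changed, edgeR recovered 55.2% at 2-fold and 92.9% at 4-fold with 11 false calls over both sizes, and DESeq2 68.8% and 94.9% with 37 false calls. Simulated libraries of a group differed only in depth and in noise drawn separately for each gene. Differences that many genes of a library share were not simulated, so these rates need not hold for the real libraries.

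The 7 genes and the lists, which were written from recalled gene function, were chosen with earlier results of these data known. Of the lists the text names the 2 genes with the smallest unadjusted p, genes that a count turns on, marker genes, and Myh7, Gucy1a2 and the transcription factors with an unadjusted p under 0.05, which were chosen after their values were seen. For each of the 7 genes the most alike of the 3 protein-coding genes with the highest Pearson's r are named. Printed sequences are from RefSeq (GRCm38.p6), and transcripts were compared in GENCODE (GRCm38). Some items are not reported here.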

Additional observations from a re-analysis of the deposited data

How the results depend on the processing

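edgeR's quasi-likelihood test called 0 of 14774 genes, with 1305 higher and 1442 lower at an unadjusted p under 0.05, and limma's voom also called 0, while 232 were called with no low-count filter, 545 by edgeR's likelihood-ratio test and 583 by DESeq2. With 1 library left out, the number of calls ran from 0 to 1773 over edgeR and DESeq2. edgeR called 836 without the library labelled NTG 1, 7 without TG 2 and 1 without TG 3, and 0 without each of the others, and DESeq2 called 1773 without the library labelled NTG 1, 123 and 169 without NTG 2 and NTG 3, and 179, 778 and 96 without TG 1, TG 2 and TG 3. The number of the 7 genes called lower ran from 0 to 2 with 1 library left out, with Nppb by DESeq2 without NTG 1 and Nppa and Nppb by DESeq2 without TG 2. DESeq2 with a library left out, other than NTG 1, was added after the values had been seen. Over 24 alternatives Nppa lay between -2.43 and -1.06, Nppb between -0.66 and -0.35, Npr1 between 0.20 and 0.35, Npr2 between -0.21 and -0.04 and Npr3 between -0.54 and -0.29, each with 1 sign throughout. Furin turned to -0.012 with library size alone and Corin to 0.0067 by DESeq2 without TG 2. With 1 library left out, the log2 difference of the Nppb to Nppa ratio ran from 0.72 to 1.75, that of Npr3 to Npr1 from -0.82 to -0.58 and that of Corin to Furin from -0.22 to -0.05. The causes of these changes were not tested.

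The labels give both groups replicate numbers 1 to 3 without saying that a number pairs hearts. Correlations of the deviations of same-numbered libraries from their group means were 0.081, 0.173 and -0.252, and the library labelled NTG 1 correlated best with TG 3. With the replicate block edgeR called 231 genes, and Nppa had a log2 fold change of -1.74 with an adjusted p of 0.0974. In ratios the block leaves the differences as they are, and the smallest p of 3 pairs is 0.25.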
